A study of Mus musculus with 12 samples.

Results

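The Mex3 family of mice has 4 genes, Mex3a, Mex3b, Mex3c and Mex3d, and their transcripts were measured in plucked skin of 12 male mice on 1-colour expression arrays, 1 array per mouse. The members were every probe whose target is a RefSeq transcript of one of the 4 genes, which gave 6 of the 55681 probes: 1 for Mex3a, 2 for Mex3b, 1 for Mex3c and 2 for Mex3d. The family was chosen by the processed signal of Mex3a, whose difference between the genotypes is among the largest on these arrays, so the genotype differences below are a description and were given no test. Tests were kept for the interaction of genotype and experiment and for the differences between experiments. These are other contrasts of the same values, and they were chosen with earlier results of these data known.

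Wild-type mice (WT) were compared with mice whose Sox4 gene was conditionally deleted in skin (cKO), and both genotypes had a mixed background of C57Bl6 and 129Sv. All were plucked, and skin was taken 12 days later, a design that asks how Sox4, a transcription factor of the SoxC group, takes part in hair regrowth and stem cell activation in the follicle. In Exp 1 the 3 WT mice were 69 to 72 weeks old and the 3 cKO mice 68 to 72 weeks. In Exp 2 the 3 WT mice were 18 to 20 weeks old and the 3 cKO mice 16 to 18 weeks, so the effects of age and of experiment cannot be told apart. The labels do not name the promoter that drives the deletion. Whole skin holds many cell types, and a lower signal from fewer cells of a type cannot be told apart from less RNA per cell.

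Mex3 proteins bind RNA through a pair of KH domains and carry a RING domain at the C-terminal end, which in ubiquitin ligases passes ubiquitin to a target protein. They are related to MEX-3 of the nematode, which represses translation of maternal transcripts in the early embryo. MEX3A is known from the gut, where it marks a slowly cycling fraction of the Lgr5 stem cells, and MEX3C is known for the decay of transcripts of major histocompatibility class I genes together with a deadenylase.

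The promoter windows of the members are shown because Mex3a had the largest genotype difference of the family, and Mex3b the next. The RefSeq promoter table (GRCm38.p6) held Mex3a and Mex3b. The 250 bases before each start site, 5′ to 3′ on the plus strand, lie at chr3:88531696-88531945 for Mex3a and at chr7:82867083-82867332 for Mex3b. Capitals mark matches, on either strand, to any of ACAAAG and ACAATG (core letters bound by SOX proteins), CCAAT (the CCAAT box) and GGGCGG (the GC box).
Mex3a: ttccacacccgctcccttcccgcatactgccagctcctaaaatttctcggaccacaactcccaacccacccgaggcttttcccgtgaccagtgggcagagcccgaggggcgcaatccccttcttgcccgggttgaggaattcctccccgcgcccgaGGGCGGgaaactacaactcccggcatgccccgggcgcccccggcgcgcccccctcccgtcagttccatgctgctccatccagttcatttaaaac
Mex3b: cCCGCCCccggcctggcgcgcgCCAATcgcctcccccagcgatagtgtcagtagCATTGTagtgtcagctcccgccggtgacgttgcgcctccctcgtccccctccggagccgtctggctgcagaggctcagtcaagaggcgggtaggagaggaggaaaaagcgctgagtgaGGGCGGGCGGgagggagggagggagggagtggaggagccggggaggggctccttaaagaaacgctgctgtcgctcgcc
The Mex3a window held 1 GC box, 94 to 89 bases before the start, and no match to the SOX core letters or to the CCAAT box. The Mex3b window held 1 ACAATG on the reverse strand, 196 to 191 bases before the start, a CCAAT box 228 to 224 bases before it, and 3 GC boxes, of which the pair nearest to the start overlaps. Of 32841 promoter windows of this length, 16.5% held ACAAAG, 10.7% ACAATG, 33.9% CCAAT and 32.7% GGGCGG. The windows were rich in G and C, at 64% for Mex3a and 68.4% for Mex3b against a median of 52.4%, and held 19 and 22 CpG pairs against a median of 6. These matches describe the letters and show no binding.

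The share of probes well above background was 53.9% to 62.6% per array. Sox4 checked the labels: its processed signal (background-subtracted intensity) was 1822 to 2416 in the 6 WT mice and 20.7 to 92.2 in the 6 cKO mice, of which cKO mice 5 and 6 were not well above background. Levels below are log2 processed signal after each array's 75th percentile was subtracted, and they are compared between mice for 1 probe at a time, not between probes.

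Mex3a was low in every cKO mouse. Its processed signal in WT mice 1 to 6 was 669.8, 709.3, 1100, 793.6, 655.4 and 749.4. The values for cKO mice 1 to 6 were 152.9, 123.1, 151.5, 123.0, 77.44 and 92.76. The brightest cKO mouse thus lay far below the dimmest WT mouse, and the gap between them was 2.22 on the relative log2 scale. The probe was well above background on 12 of 12 arrays and saturated on none, and the raw spot medians of the cKO arrays (123.5 to 198) stood above a local background of 28 to 37. The low level in cKO skin was therefore measured and is not a bound.

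**Figure D1:**
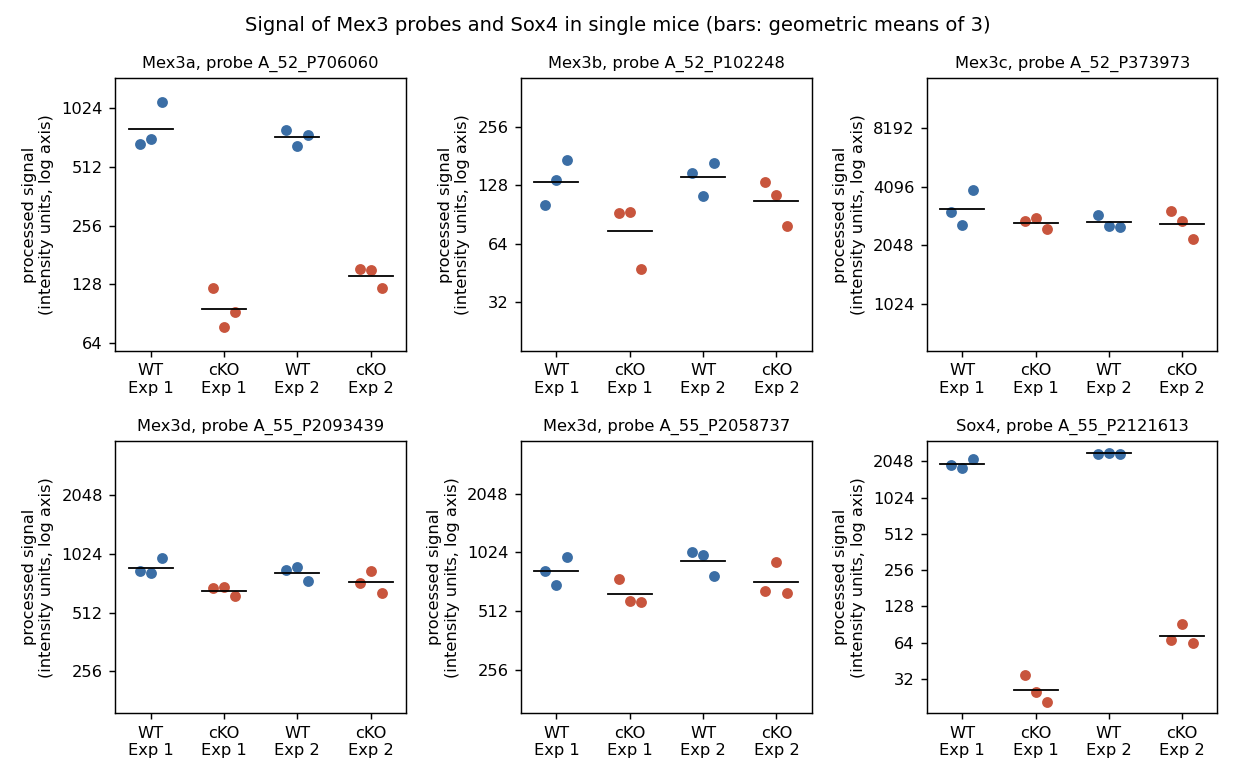
Processed signal (intensity units, log2 axis) of the 5 Mex3 probes above background and of Sox4, 1 point per mouse, by genotype and experiment; bars are geometric means of 3 mice. The 6 cKO mice lie between 77.44 and 152.9 for Mex3a and the 6 WT mice between 655.4 and 1100, while the genotypes overlap for the other Mex3 probes.

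The mean level of Mex3a was 0.64 ± 0.24 in WT and -1.98 ± 0.16 in cKO skin (SD, n = 6 each). The fitted difference, cKO minus WT averaged over the experiments, was -2.63 (SE 0.11), which left 16.2% of the WT signal. Of the 16183 genes tested, 3 had a lower difference: Sox4 at -5.54 (SE 0.12), Klk15, a kallikrein-type protease, at -3.28 (SE 0.54), and Slc5a7, a choline transporter, at -3.16 (SE 0.46). Spink12, a protease inhibitor, came next at -2.60 (SE 0.34). The SE of Mex3a was the smallest of these 5.

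Every cKO mouse lay below every WT mouse for Mex3a, as for 1.20% of the 16158 genes without missing values. The same held within each experiment, where 3 mice are set against 3 and the share of all genes was 7.20% in Exp 1 and 9.88% in Exp 2. Because Mex3a was chosen for this contrast, these shares only place it among the genes. In Exp 1 the levels were 0.75 ± 0.32 in WT and -2.11 ± 0.11 in cKO (SD, n = 3 each), a difference of -2.86 (SE 0.15). In Exp 2 they were 0.54 ± 0.042 and -1.85 ± 0.021, a difference of -2.39 (SE 0.15). The difference was present on both slides that held both genotypes, at -2.69 on slide 1 and -2.52 on slide 2.

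Mex3b was lower in cKO skin by a smaller amount, and its genotypes overlapped. The processed signal of the probe above background was 100.8, 135.4, 171.5, 148.1, 112.4 and 167.1 in WT mice 1 to 6. The values for cKO mice 1 to 6 were 132.7, 91.88, 114.1, 78.81, 92.94 and 47.65. On the relative scale 3 of the 6 cKO mice lay below the lowest WT mouse. The separation was complete within Exp 2, as for 9.88% of all genes, but not within Exp 1. The levels were -1.85 ± 0.29 in WT and -2.38 ± 0.39 in cKO (SD, n = 6 each), with a fitted difference of -0.53 (SE 0.20), or 69.1% of WT. It was the 540th lowest of the 16183 differences.

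The size for Mex3b rested on few mice. Without cKO mouse 6, the lowest of all, the averaged difference was -0.39, and the difference in Exp 1 went from -0.63 to -0.35. In Exp 1 it was -1.14 on slide 1 and 0.37 on slide 2, so its sign was not shared by the slides. The second Mex3b probe never stood well above background, with a signal of 3.35 to 11.7, and no difference was computed for it.

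Mex3c had nearly the same level in both genotypes. Its processed signal was 3021, 2590, 3946, 2936, 2585 and 2536 in WT mice 1 to 6, and 3083, 2730, 2738, 2193, 2812 and 2475 in cKO mice 1 to 6. The ranges overlapped almost fully. The levels were 2.56 ± 0.21 and 2.52 ± 0.24 (SD, n = 6 each), and the difference of -0.035 (SE 0.10, 95% interval -0.27 to 0.20) was close to the median of all genes, also -0.035. Within slide 2 it was 0.16.

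Mex3d was measured by 2 probes, which correlated at r = 0.73 over the 12 mice. The brighter on average, used in the fit, read 837.7, 813.9, 975, 846.3, 882.8 and 744.6 in WT mice 1 to 6, and 730.9, 684.4, 837.1, 644.2, 691.4 and 620.4 in cKO mice 1 to 6. The genotypes overlapped, at 0.79 ± 0.21 in WT and 0.60 ± 0.19 in cKO (SD, n = 6 each). The difference was -0.19 (SE 0.12), and it was -0.48 on slide 1 and 0.076 on slide 2. The second probe gave -0.28 (SE 0.12), and its cKO mice lay below its WT mice in Exp 1 only, where 7.20% of all genes did.

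**Figure D2:**
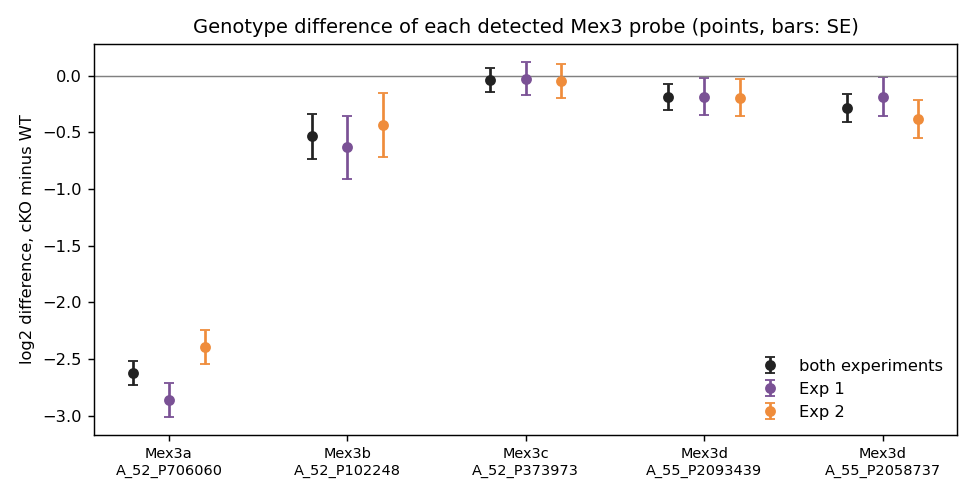
Log2 difference, cKO minus WT, of each Mex3 probe above background, over both experiments and in each; bars are SE. Mex3a lies between -2.86 and -2.39, and the other probes lie between -0.63 and -0.024.

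The Mex3a difference was larger in Exp 1 than in Exp 2 by 0.47, and this interaction did not pass the test. Its 95% interval was -0.94 to 0.0011, with an unadjusted p of 0.0504 and an adjusted p of 1 in limma over all genes. The interaction was -0.20 (-1.08 to 0.68) for Mex3b, 0.022 (-0.44 to 0.48) for Mex3c and 0.0093 (-0.51 to 0.53) for Mex3d, each with an adjusted p of 1 in limma. None of the 4 Mex3 genes reached an unadjusted p under 0.05, and of all genes 0.00618% passed after adjustment. The intervals leave room for differences between the experiments of the sizes they span.

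Between the experiments, no Mex3 gene passed the test within either genotype. In WT skin, Mex3a was 0.21 higher in Exp 1 (95% interval -0.12 to 0.54, limma adjusted p = 0.503), and in cKO skin its difference was -0.26 (-0.59 to 0.072, limma adjusted p = 0.287). Mex3c was higher in Exp 1 by 0.29 in WT (limma adjusted p = 0.321) and by 0.32 in cKO skin (limma adjusted p = 0.192). For Mex3d the differences were 0.15 and 0.16 (limma adjusted p = 0.67 and 0.565), and for Mex3b -0.016 and -0.21 (limma adjusted p = 0.985 and 0.664). Of all genes, 0.840% passed in WT and 9.98% in cKO skin.

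**Figure D3:**
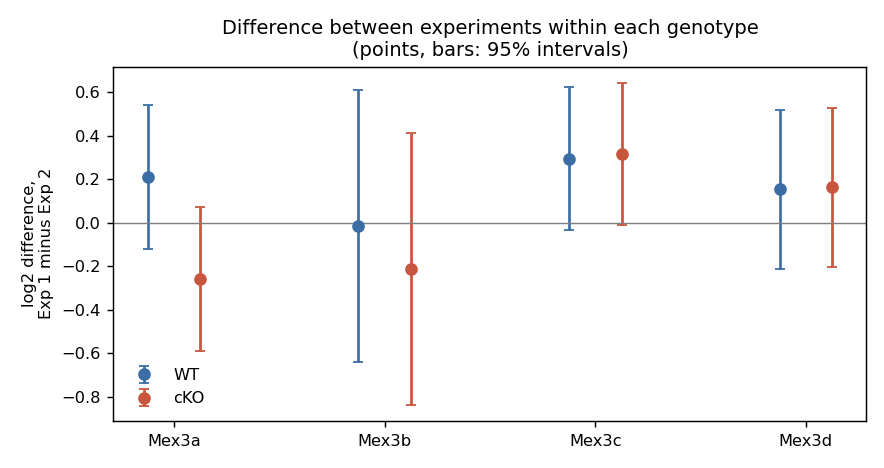
Log2 difference, Exp 1 minus Exp 2, of the 4 Mex3 genes in WT and in cKO mice, 3 mice a group; bars are 95% intervals. Every interval includes 0, and the points for Mex3a are 0.21 in WT and -0.26 in cKO.

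The levels of Mex3a in cKO skin were -2.23 to -2.02 in Exp 1 and -1.88 to -1.83 in Exp 2. This difference did not pass the test. It was 0.050 in the authors' table, -0.16 there without its column of cKO mouse 1, and below 0 in every other alternative. No difference in Sox4 between the cKO groups is drawn: the brighter probe was well above background in 1 of the 3 Exp 1 cKO mice, the second probe in none of the 6 cKO mice, and their fitted differences, Exp 1 minus Exp 2, had opposite signs (-1.19 and 0.40).

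Over the 12 mice, the genes most like Mex3a in level were Tead2, a TEAD transcription factor of the Hippo pathway (r = 0.99), Sox4 (0.99), Plppr3 (0.97), Zfp454 (0.96) and Evl, an actin regulator (0.95). These points fall into 2 genotype clusters, so the pooled values restate the genotype difference. Within the 6 WT mice, r with Mex3a was 0.78 for Tead2 and -0.10 for Sox4. Within the 6 cKO mice, which span both experiments, it was 0.83 and 0.85, the latter with Sox4 not well above background in 2 of the 6. After subtraction of the 4 group means the order changed. Lyn, a Src-family kinase, came first (r = 0.94), then Klk15 (0.93), Mrm3 (0.89), Inhba, an activin subunit (0.89), and Mrps6 (0.86). Without the 2 mice farthest out, r was 0.76, 0.70, 0.88, 0.60 and 0.48 in that order. These are the highest values among 16158 genes over the same mice and were not tested.

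The other members had other neighbours. Mex3b was most like Wdfy4, Ptprc, Irf8 and Cd48, which are expressed in blood-derived cells, with r of 0.92 each over 12 mice, and then Efemp2, of elastic fibres (0.90). Within genotypes, r between Mex3b and Ptprc was 0.91 in WT and 0.95 in cKO mice. The neighbours of each member were picked by the highest r among 16158 genes over these same 12 mice. The values within genotypes are therefore no separate check. Mex3c was most like Mmp13, a collagenase (0.95), Litaf, Plgrkt, Mindy3 and Jtb (0.93 each), and Mex3d was most like Kdf1 (0.95), Rbm45, Swap70, Rraga and Gtf2f2 (0.93 to 0.92). Between the members, r was 0.69 for Mex3c with Mex3d, both before and after the group means were removed, and 0.68 for Mex3a with Mex3b, which was 0.35 after that step.

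Genes that work with or beside Mex3 proteins were read from lists, with counts set against 0.420% of all genes called for the averaged genotype contrast and 12.2% at an unadjusted p under 0.05. Of 28 other KH-domain RNA-binding genes, 0 passed in limma (6 at an unadjusted p under 0.05) and 21 were below 0, with a median of -0.081 beside -0.035 for all genes, of which 57.7% were below 0. The differences of these 28 genes ran from -0.43 to 1.04. The smallest p-values belonged to the poly(C)-binding genes Pcbp4 (-0.35, SE 0.086, limma adjusted p = 0.135) and Pcbp3 (-0.43, SE 0.13, limma adjusted p = 0.235). Of 14 other RNA-binding ubiquitin ligase genes, 0 passed in limma (2 at an unadjusted p under 0.05) and the median was 0.018, with Trim25 at 0.37 (limma adjusted p = 0.402) and Trim56 at 0.21 (limma adjusted p = 0.406).

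The machinery of transcript decay gave similar counts. Of 19 genes of CCR4-NOT and other deadenylases, which shorten poly(A) tails, 0 passed in limma (1 at an unadjusted p under 0.05) and the median was -0.055, with Cnot7 at -0.29 (limma adjusted p = 0.28) and Cnot11 at -0.21 (limma adjusted p = 0.448). Of 23 genes of processing bodies and RNA silencing, 0 passed in limma (2 at an unadjusted p under 0.05) and the median was -0.057. Their differences ran from -1.24 to 0.25. The smallest p-values belonged to Lsm14b at -0.34 (limma adjusted p = 0.26) and the exonuclease gene Xrn1 at 0.18 (limma adjusted p = 0.345).

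Of 11 genes reported as targets or partners of Mex3 proteins, 0 passed in limma (3 at an unadjusted p under 0.05) and the median was 0.0013. The experiments differed. In Exp 1 the median was 0.23 and 6 of the 11 had an unadjusted limma p under 0.05, beside 11.3% of all genes. In Exp 2 the median was -0.041 and 0 of the 11 did, beside 4.67%. For the interaction 4 of the 11 did, beside 3.16%. After adjustment 0 passed in each of these contrasts. The class I gene H2-K1 was at 0.32 (SE 0.11, limma adjusted p = 0.304), and Cnot7 is also on this list. Of 11 genes known from Lgr5-type and Lrig1-type stem cells, 0 passed in limma (2 at an unadjusted p under 0.05) and the median was 0.0034. Bmi1, a Polycomb component, was at -0.33 (SE 0.079, limma adjusted p = 0.128) and Ascl2, a transcription factor of gut stem cells, at 0.30 (limma adjusted p = 0.317).

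Of 6 genes of the SoxC group and reported Sox4 targets, 2 fell, beside 0.389% of all genes, and 5 were below 0, with a median of -0.39. They were Sox4 itself and Tead2, at -1.23 (SE 0.092, limma adjusted p = 0.000316). Sox4 is the deleted gene, so its fall was set by the design, and it also counts among the 5 and in the median. That leaves the call of Tead2. The list was chosen with earlier results of these data known, so this call describes Tead2 and is no separate support. Tead2 lost its call with the mouse number as a replicate block (-1.23, limma adjusted p = 0.0568) and within slide 1 alone (-1.23, limma adjusted p = 0.062), at nearly the same difference.

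**Figure D4:**
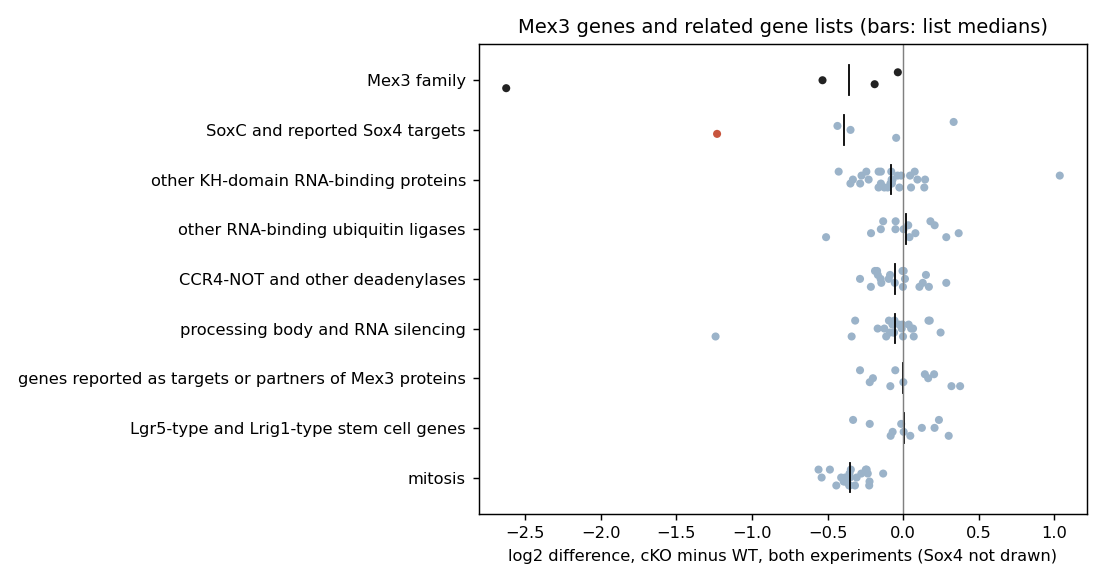
Log2 difference, cKO minus WT over both experiments, of the 4 Mex3 genes and of 8 gene lists, 1 point per gene; bars are medians, red marks a limma adjusted p under 0.05 (not marked for the Mex3 genes) and Sox4 counts in its median but is not drawn. Mex3a at -2.63 lies apart from the list members, whose medians lie between -0.39 and 0.018.

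Of 23 mitosis genes, 0 passed in limma (16 at an unadjusted p under 0.05, beside 12.2% of all genes), and all 23 were below 0, with a median of -0.35. Tpx2, a spindle assembly gene, was at -0.54 (SE 0.10, limma adjusted p = 0.0567) and the topoisomerase gene Top2a at -0.44 (limma adjusted p = 0.131). Tpx2 passed in 4 of 25 alternatives. With all mice it passed under normexp with quantile normalization (limma adjusted p = 0.028) and with trend and robust settings (limma adjusted p = 0.0378). It also passed without WT mouse 6 (limma adjusted p = 0.043) and without cKO mouse 6 (limma adjusted p = 0.0477). The mean level of the list was 1.00 to 1.51 in WT and 0.62 to 1.07 in cKO mice, which overlap over both experiments. In Exp 1 they did not overlap, at 1.01 to 1.45 in WT and 0.62 to 0.90 in cKO mice. Of single genes, 7.20% separated in this direction there. In that experiment 20 of the 23 genes had an unadjusted p under 0.05, beside 11.3% of all genes. In Exp 2 the mean levels overlapped, at 1.00 to 1.51 and 1.04 to 1.07. There 1 of the 23 genes had an unadjusted p under 0.05, beside 4.67%. Its part in the Mex3a difference was not tested.

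Markers of other skin components also moved between mice. For the averaged genotype contrast, 0.420% of all genes were called by limma and 12.2% had an unadjusted limma p under 0.05. Of all genes, 57.7% had differences below 0. The counts that follow stand beside these shares. The mean level of 22 skeletal muscle genes ran from -4.07 to 4.64 in WT and from -3.11 to 4.77 in cKO mice, and all 22 differences were above 0, with a median of 2.13, 0 called by limma and 9 at an unadjusted p under 0.05. The mean of 13 hair matrix and shaft genes was 4.67 to 5.66 in WT and 2.30 to 5.49 in cKO mice, with all 13 differences below 0, 0 called by limma and 1 at an unadjusted p under 0.05. The mean of 5 T lymphocyte genes was -0.67 to -0.27 in WT and -1.33 to -0.088 in cKO mice, the highest being cKO mouse 5. Of these genes, 4 had differences below 0, with a median of -0.55, 0 called by limma and 4 at an unadjusted p under 0.05, and Cd247 of that list was not above background on any array. For 10 melanocyte genes the ranges were 2.75 to 3.41 and -0.33 to 3.25, with all 10 differences below 0, a median of -0.86, and 0 called by limma or at an unadjusted p under 0.05. Among 7 basal keratinocyte genes, which mark the labelled tissue, they were 5.27 to 5.89 and 5.13 to 6.64, and all 7 were above background on 12 arrays. For adipocyte genes they were 2.77 to 4.29 and 0.72 to 4.51, for fibroblast genes 5.11 to 5.69 and 5.09 to 5.66, and for peripheral nerve genes -0.064 to 0.25 and 0.042 to 0.44. Over both experiments each of these ranges overlapped between the genotypes. Within experiments, 3 of the 8 lists did not overlap. Every cKO mouse lay below every WT mouse for 7.20% of single genes in Exp 1 and 9.88% in Exp 2. The share in the other direction, which is that of muscle and nerve in Exp 1, was not counted. No such share was counted for list means. In Exp 2 the T lymphocyte mean was -0.67 to -0.27 in WT and -1.33 to -1.15 in cKO mice. In Exp 1 the muscle mean was -4.07 to -3.12 in WT and -3.11 to -0.17 in cKO mice, which are barely apart. The nerve mean there was -0.064 to 0.17 and 0.22 to 0.44. Their part in the Mex3 values was not tested.

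One cKO mouse of Exp 1 stood apart in these lists. In cKO mouse 5 the melanocyte mean was -0.33, the hair matrix mean 2.30 and the adipocyte mean 0.72, each the lowest of the 12 mice, and the basal keratinocyte mean of 6.64 was the highest. It also had the lowest level of Mex3a, at -2.23. Without it the averaged difference was -2.60 for Mex3a, -0.66 for Mex3b, -0.10 for Mex3c and -0.25 for Mex3d.

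**Figure D5:**
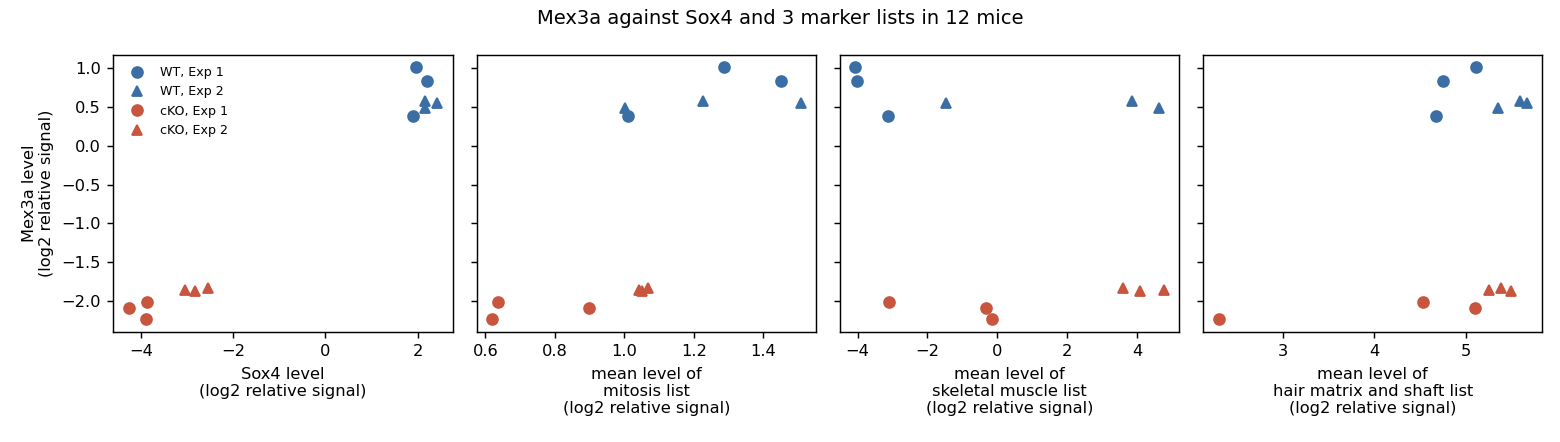
Level of Mex3a in the 12 mice against the level of Sox4 and the mean level of the mitosis, skeletal muscle and hair matrix lists (all log2 relative signal); colour is genotype and shape is experiment. The genotypes separate along the Mex3a axis in every panel, while the list means overlap when both experiments are pooled, with muscle spread from -4.07 to 4.77.

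Genes of the 8 pathway lists were called between the experiments in cKO skin at a share no higher than that of all genes. Of their 132 distinct genes, 11 passed for Exp 1 minus Exp 2 in cKO mice, or 8.33%, beside 9.98% of all genes, and 0 passed in limma in WT mice or for the interaction (23 and 8 at an unadjusted p under 0.05, beside 18.5% and 3.16% of all genes). Of all genes, 5.38% were higher and 4.60% lower in Exp 1. Higher in Exp 1 were Ago4 by 0.95 and Tnrc6a by 0.54, of the RNA silencing machinery, Xrn1 by 0.45, H2-K1 by 0.74, Trim56 by 0.52 and Sox9 by 0.43. Igf1, Nova2, Kif11 and Tpx2 were lower, at -1.02, -0.92, -0.74 and -0.65, and the 11th was Sox4, which was at or near background there. With slide as a block, the call of Sox4 was the 1 that remained, and no difference is drawn from it, as stated above. The differences of the other genes were then 0.40 to 0.94 for those higher in Exp 1 and -1.08 to -0.63 for those lower, with limma adjusted p from 0.0514 to 0.122.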

How the data were processed

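Total RNA from plucked skin of 12 mice was amplified from a T7 promoter and labelled with Cy3, per the labels' protocols, and each sample was put on 1 Agilent array. Per the file headers, the processed signal is a background-subtracted intensity that was not scaled between arrays, and the files hold 0 or 1 flags for spots well above background, saturated or outlying. The deposited value table holds log2 values, for which the submitters' processing notes name limma; no source used here gives its steps. It served as an alternative only. The array of cKO mouse 1 correlated at 0.933 with its own column of that table and best with the column of WT mouse 6.

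Outlier spots were left out, log2 processed signal was averaged per probe, and the 75th percentile of the array was subtracted. Probes were named through RefSeq (GRCm38.p6), which gave 27509 of 55681 a symbol. A probe was kept if well above background on at least 3 of 12 arrays, and the brightest kept probe stood for a gene. The 16183 genes were fitted as 4 group means with limma 3.58.1 in R 4.3.3 (empirical Bayes without trend, two-sided, Benjamini-Hochberg adjustment over all genes, threshold 0.05). The script was tested on simulated data for the averaged contrast over 16158 genes: a share of 1 of the genes lowered by 2.5 on the log2 scale was called, and a share of 0.76 of those lowered by 1.

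The members, the gene lists and the tests were chosen with earlier results of these data known. Genes named were the Mex3 probes, Sox4, called members of each list or else the 2 of smallest p, and the 5 genes most correlated with each member; the neighbours of Mex3a in rank and the list genes called between experiments were named after their values were seen. Alternatives were median scaling, normexp with quantile normalization, other filters and probe rules, the deposited table, slide as a block or alone, the mouse number as a block, and each mouse left out. Normexp used the median spot signal, because the files used here carry no mean signal column. An offset of 50 was added before log2 was taken. Slide 1 held 6 arrays, slide 2 held 5 and slide 3 held 1. Nothing in the labels ties equal mouse numbers across genotypes, and only numbers 2 and 4 shared an experiment. The number of arrays limits the precision.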

Additional observations from a re-analysis of the deposited data

How the results depend on the processing

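The averaged Mex3a difference was -2.13 with normexp (offset 50) and quantile normalization and -2.23 in the authors' table. It was -2.13 in that table without its column of cKO mouse 1, an alternative added after seeing the data. In Exp 1 these values were -2.31 each, with -2.62 within slide 2 and -3.04 to -2.73 with a mouse left out; in Exp 2 they were -1.95, -2.16 and -1.95. Mex3b in Exp 1 was -1.14 within slide 1 and 0.37 within slide 2, and in Exp 2 it was -0.043 in the authors' table. Mex3c was 0.16 within slide 2, and in Exp 1 -0.23 and 0.39 within slides 1 and 2. Mex3d was -0.48 and 0.076 within slides 1 and 2, in Exp 1 -0.38 and 0.21, and in Exp 2 -0.58 within slide 1. The interaction and the differences between experiments of the 4 Mex3 genes stayed short of the threshold in all 24 alternatives run for each.

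Counts of genes called moved more. The averaged 68 became 45 without a filter, 19 in the authors' table, 42 there without cKO mouse 1, 499 within slide 2, and 31 (without WT mouse 3) to 122 (without cKO mouse 6). The interaction count of 1 became 0 with the stricter filter, the authors' table with or without cKO mouse 1, slide as a block, or trend and robust (487, 194, 476, 425 and 502 genes at an unadjusted p under 0.05 in limma), 7 and 392 within slides 1 and 2, and 0 to 2 with a mouse left out. For Exp 1 minus Exp 2 in WT the 136 became 277 with median scaling, 273 with normexp, 44 without a filter, 4 in the authors' table, 251 there without cKO mouse 1, 21 with slide as a block, 5 and 702 within slides 1 and 2, and 6 (without WT mouse 2) to 597 (without cKO mouse 5). In cKO the 1615 became 1031 with median scaling, 62 and 1054 in the authors' table with and without cKO mouse 1, 146 with slide as a block, 112 and 2988 within slides, and 157 (without cKO mouse 3) to 2324 (without cKO mouse 6). The causes were not tested; the within-slide fits have few arrays. Under median scaling the all-gene median went from -0.065 to -0.21 in Exp 2 and from 0.029 to 0.14 for the interaction.

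With the mouse number as a replicate block, the averaged contrast called 5 genes and Mex3a stayed at -2.63. Deviations from the genotype means correlated at 0.414 and 0.638 for numbers 2 and 4, whose mice shared an experiment. For the other numbers they correlated between -0.585 and -0.157. The difference between the experiments stays in these deviations, so they cannot show whether the numbers pair the mice.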
